A study of Mus musculus with 56 samples.

Results

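The 33 genes described here are ones that the leptomeninges, the thin membranes on the brain surface, and fibroblasts are known to express. They were chosen by name, with earlier results of these data known, and all 33 were among the 18088 genes of the deposited table and among the 17778 that were tested. RNA was sequenced from prefrontal cortex taken on postnatal day 25 from 56 C57BL/6J mice. The mice were heterozygous for Scn2a (HT), which encodes a neuronal sodium channel, or wild type (WT). From day 3 to day 24 they had received fluoxetine, a serotonin reuptake inhibitor, lithium, a mood stabiliser, or vehicle through the milk of their mothers. HT mice gave 9 libraries under fluoxetine, 10 under lithium and 10 under vehicle, and WT mice gave 9 under each. Each of these sets held 4 or 5 libraries of each sex. The labels give no dose, allele, dam or litter, so an effect of a drug and an effect of the litters that received it cannot be told apart, and the p-values measure the spread between these mice.

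The leptomeninges are built from fibroblasts and from barrier cells. Fibroblasts secrete fibrillar collagens, which form the strength-bearing fibres of the membranes, together with collagen VI and small leucine-rich proteoglycans that bind and space those fibres. Barrier cells carry transporters that move neurotransmitters, anions and cations between brain fluid and blood, and they are joined by connexin channels. Forkhead transcription factors specify these cells in development, and they release retinoic acid and growth factors onto the cortex beneath. Several of the genes are also used elsewhere in the brain. Ptgds is also made by oligodendrocytes and choroid plexus, Igf2 by choroid plexus, and Fn1 by endothelial cells.

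Values are normalised reads, that is, reads divided by a size factor of the library. Libraries held 24.3 to 36.4 M reads (median 27.9 M). Scn2a averaged 8554 ± 423 normalised reads in HT (SD, n = 29) and 12311 ± 780 in WT (n = 27), and the 2 genotypes did not overlap at 7583 to 9619 in HT against 9727 to 13381 in WT. A marker of excitatory cortical neurons was present in every library, with at least 45151 normalised reads of Slc17a7. In 19 libraries, 2 to 4 in each set of genotype and treatment, a score of olfactory bulb or striatal transcripts was more than 1 log2 unit above the median library. Calls are given below with and without these 19 libraries.

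The 33 genes together made up 0.1003% to 0.157% of the reads of a library, with a median of 0.130%. Ptgds, which encodes lipocalin-type prostaglandin D synthase, supplied 39.2% of their sum. Compared per 1000 bases of transcript, the median level of Ptgds was 16383 normalised reads, followed by 977 for Col6a1, 889 for Igfbp2, 814 for Igf2, 785 for Mgp and 508 for Fn1. At the low end on the same scale were Foxd1 with 8.55, Twist1 with 8.93 and Slc22a2 with 12.5. The genes thus covered more than 3 orders of magnitude, and Twist1, at 7.26 to 29.2 normalised reads in a library, was measured on few reads.

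The levels of these genes differed more between mice of one group than those of other genes. In 31 of the 33 genes the SD within groups on the log2 scale was above the median SD of genes with a mean level within 1.5-fold. The exceptions were Lum, which encodes the proteoglycan lumican, and the transcription factor gene Twist1. The SD was 0.26 for Col1a1, against a median of 0.10 for 2969 genes of like level, and 0.34 for Islr, against 0.10 for 2967 genes. For Ptgds it was 0.16, against 0.08 for 315 genes.

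Most of the 33 genes were high or low in the same libraries. After subtraction of the means of the 12 groups of genotype, treatment and sex, 481 of 528 gene pairs had a Pearson r above 0 over the 56 libraries and 215 had an r above 0.5. The median r was 0.47. All values of a library share its depth, its dissection and its size factor, so these correlations are given as a description. The highest r, 0.92, was that of Col1a1 and Col1a2, which encode the 2 chains of type I collagen. Spp1, which encodes osteopontin, and Islr followed with 0.89, and Igf2, a growth factor gene, and Aebp1, which encodes a collagen-binding protein, with 0.85. Pairs of the same role had a median r of 0.53 (80 pairs) and pairs of different roles one of 0.46 (448 pairs). Igf2 and Aebp1 were also the genes closest to the mean of the other 32, with r of 0.91 and 0.92.

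**Figure D1:**
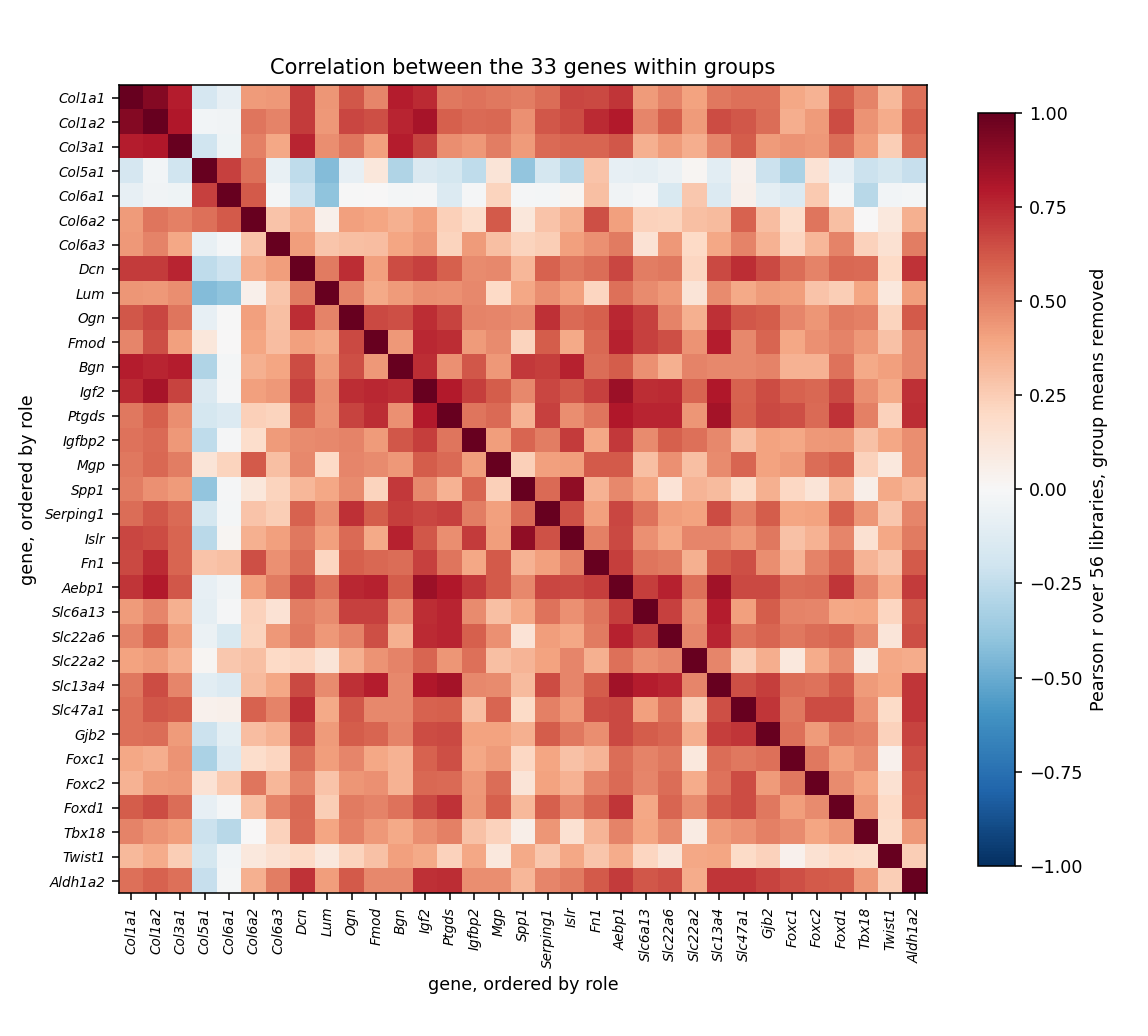
Pearson r between each pair of the 33 genes over 56 libraries, on the log2 scale after subtraction of the 12 group means, with genes in the same order on both axes. Most of the map is red, with a median r of 0.47, while the Col5a1 and Col6a1 lines are mostly pale or blue apart from the cells that join these genes with each other and with Col6a2.

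Col5a1, which encodes a chain of type V collagen, and Col6a1, which encodes a chain of collagen VI, did not follow the rest. Their r with the mean of the other genes was -0.11 and 0.02. With each other they had an r of 0.68, and with Col6a2 their r was 0.55 and 0.61. The other chains of collagen VI lay between, with an r of 0.52 for Col6a2 and 0.49 for Col6a3. Col5a1 was lowest against Lum, with an r of -0.43.

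The sequences below were chosen from the collagen genes. Col1a2 belongs to the pair with the highest r, and Col3a1, chosen after its values were seen, was called lower under lithium in both genotypes, calls that were lost without the 19 libraries rich in olfactory or striatal transcripts. They are the 250 bases before the start of each gene from RefSeq, build GRCm38.p6, at chr6:4505368-4505617 for Col1a2 and chr1:45311288-45311537 for Col3a1, both on the + strand and given 5′ to 3′. In GENCODE vM21, used for gene positions, Col1a2 starts further upstream, at 4504814, so the Col1a2 stretch lies inside that gene there. Capitals mark matches to the CCAAT box, to the GC box GGGCGG and to the TATA box TATAAA, each searched on both strands.
Col1a2: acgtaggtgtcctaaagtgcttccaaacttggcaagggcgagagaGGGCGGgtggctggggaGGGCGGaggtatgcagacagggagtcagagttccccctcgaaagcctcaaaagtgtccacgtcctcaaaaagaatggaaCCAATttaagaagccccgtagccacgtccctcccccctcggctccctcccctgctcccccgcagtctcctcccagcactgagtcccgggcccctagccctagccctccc
Col3a1: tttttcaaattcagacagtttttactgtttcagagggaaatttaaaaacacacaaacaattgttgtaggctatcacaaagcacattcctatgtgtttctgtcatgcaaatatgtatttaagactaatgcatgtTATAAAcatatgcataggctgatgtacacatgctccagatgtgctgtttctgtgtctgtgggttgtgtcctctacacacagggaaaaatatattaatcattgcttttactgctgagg
The Col1a2 stretch held the GC box at -205 and at -188 and the CCAAT box at -109. The Col3a1 stretch held the TATA box at -117. Each position is the first base of the match, counted from the RefSeq gene start. RefSeq promoters were matched for 25 of the 33 genes by symbol, 33 promoters in all since some genes had several starts. The CCAAT box was in 36.4% of these 33, against 33.9% of 32851 promoters of all genes. The GC box was in 42.4%, against 32.7%, and the TATA box in 12.1%, against 12.4%. A match is a description of the letters only.

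A score was made for each library as the mean over the 33 genes of log2 values in SD units (z-scores). It was highest in HT vehicle female 1 at 1.29, followed by WT vehicle female 3 at 1.16, WT vehicle male 3 at 1.09 and WT fluoxetine female 4 at 1.07. It was lowest in WT lithium female 4 at -1.76, HT lithium female 4 at -1.66, WT lithium male 5 at -1.37 and HT vehicle female 5 at -1.15. WT lithium female 4 alone held the lowest value of 14 of the 33 genes, and HT lithium female 4 that of 9. The lowest library was one of the 19 lithium libraries for 27 genes, and the highest was one of the 19 vehicle libraries for 25.

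**Figure D2:**
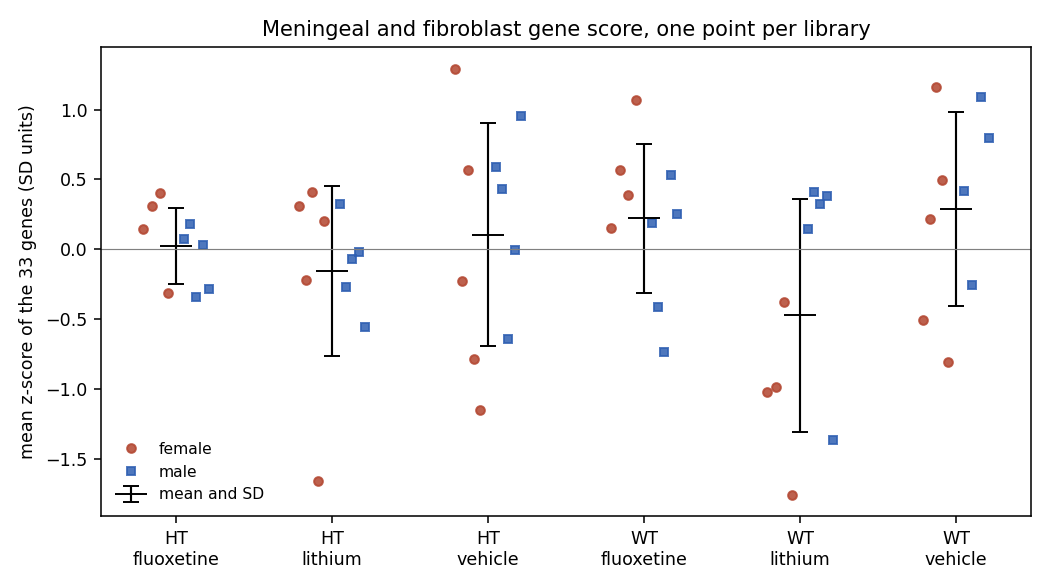
Mean z-score of the 33 genes in each library by genotype and treatment, with females as circles, males as squares and the mean and SD of each set as bars. HT fluoxetine libraries lie between -0.34 and 0.40, and the other sets spread further. WT lithium libraries average -0.47 and WT vehicle libraries 0.29, and the 2 sets overlap.

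The score was also set beside gene lists and single genes outside the 33. Over the 56 libraries within groups, the score had an r of 0.93 with the mean of 20 other meningeal and fibroblast genes, 0.79 with 14 collagen processing genes and 0.74 with 13 genes of basement membrane collagens and laminins. The genes with the highest r outside the 33 were Mrc2, a collagen receptor gene, with 0.84, Thbd with 0.82, Anpep and Kank2 with 0.81, Pcolce, which encodes an enhancer of procollagen cleavage, and Mxra8 with 0.80, Col8a2, Vtn and Bmp6 with 0.79 and Slc26a2 with 0.78. Among markers of other cell types the r was 0.74 for astrocytes, 0.60 for microglia, 0.58 for endothelium, 0.57 for pericytes and smooth muscle, 0.42 for blood, 0.39 for choroid plexus and 0.28 for border macrophages. It was 0.27 for olfactory bulb, 0.03 for oligodendrocytes, -0.12 for striatum and -0.53 for cortical neurons. What part these cells had in the score was not tested.

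Lithium was set against vehicle within each genotype. In WT mice 5 of the 33 genes were called lower under lithium: Gjb2, Col3a1, Igf2, Tbx18 and Slc6a13, by 20.0% to 25.0% after conversion of the fitted log2 changes. Each had a limma adjusted p below 0.05 over all genes, while 1.88% of all 17778 genes were called lower, 3.84% higher and 5.71% in either direction. Of the 33 genes 32 were on the lower side, with a median log2 change of -0.23, against a median of 0.00 over all genes. Most of the 33 genes were high or low in the same libraries, so counts by direction, here and below, are not separate results. An unadjusted p below 0.05 was found for 15 genes. No gene had WT lithium and WT vehicle libraries without overlap. None of the 5 was called without WT lithium female 4, or without the 19 libraries rich in olfactory or striatal transcripts. In bulk tissue, fewer cells of a type, less RNA per cell and less membrane left on the dissected piece cannot be told apart.

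Transporters and the connexin gene of the barrier were all on the lower side in WT lithium mice, with a median log2 change of -0.34 over 6 genes and 2 calls. Gjb2, which encodes connexin 26, ranged from 180 to 375 normalised reads in WT lithium libraries with a median of 253, against 272 to 418 with a median of 358 in WT vehicle libraries. The 4 WT lithium females, at 180 to 253, lay below every WT vehicle library, and 4 of the 5 WT lithium males lay among them. The log2 change of Gjb2 was -0.38 ± 0.10 (SE, limma adjusted p = 0.016), and 9 of 9 WT lithium libraries were below the vehicle mean of their sex. Slc6a13, which encodes the GABA transporter GAT2, averaged 269 ± 69.7 in WT lithium mice and 339 ± 64.5 in WT vehicle mice (SD, n = 9 each). Its log2 change was -0.38 ± 0.12 (limma adjusted p = 0.047), with 7 of 9 libraries below the vehicle mean. Slc13a4, a sulfate transporter gene, had a log2 change of -0.36 (limma adjusted p = 0.053) and Slc22a6, an organic anion transporter gene, one of -0.32 (limma adjusted p = 0.088). The cation transporter genes Slc22a2 and Slc47a1 had log2 changes of -0.27 and -0.23 with larger errors, an SE of 0.20 and 0.17.

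The 4 fibrillar collagen genes were all on the lower side, with a median log2 change of -0.26 and 1 call. Col3a1, which encodes type III collagen, ranged from 301 to 585 normalised reads in WT lithium libraries with a median of 429, against 394 to 732 with a median of 608 in WT vehicle libraries. Its lowest value was in WT lithium male 5 and its highest in WT vehicle male 4, and the 2 sets overlapped. The log2 change was -0.41 ± 0.12 (SE, limma adjusted p = 0.028), and 9 of 9 libraries were below the vehicle mean of their sex. Col1a1 averaged 643 ± 112 in WT lithium mice and 793 ± 119 in WT vehicle mice (SD, n = 9 each), with a log2 change of -0.32 ± 0.12 (SE, limma adjusted p = 0.098). Col1a2 averaged 1175 ± 189 in WT lithium mice and 1320 ± 170 in WT vehicle mice, and the log2 change was -0.19 ± 0.08 (SE, limma adjusted p = 0.15). Col5a1 had a log2 change of -0.10.

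Collagen VI genes had small changes, between -0.13 and -0.02 on the log2 scale, and none of the 3 was called. None of the 5 small leucine-rich proteoglycan genes was called, with a median log2 change of -0.22. Dcn, which encodes decorin, averaged 340 ± 69.9 normalised reads in WT lithium mice and 395 ± 53.0 in WT vehicle mice (SD, n = 9 each), a log2 change of -0.26 (limma adjusted p = 0.063). Fmod, which encodes fibromodulin, had a log2 change of -0.28 (limma adjusted p = 0.064) and Bgn, which encodes biglycan, one of -0.02.

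Of 9 genes for other secreted and matrix proteins, 8 were on the lower side and 1 was called. Igf2, the gene of insulin-like growth factor 2, ranged from 2110 to 3616 normalised reads in WT lithium libraries with a median of 2737, against 2806 to 4584 with a median of 3437 in WT vehicle libraries. All 4 WT lithium females and 1 male lay below the lowest WT vehicle library. The log2 change of Igf2 was -0.32 ± 0.10 (SE, limma adjusted p = 0.038), and 9 of 9 libraries were below the vehicle mean of their sex. Ptgds averaged 13970 ± 1868 in WT lithium mice and 15840 ± 1748 in WT vehicle mice (SD, n = 9 each), with a log2 change of -0.21 (limma adjusted p = 0.080). Mgp, which encodes matrix Gla protein, was the only one of the 33 on the higher side, with a log2 change of 0.02.

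The 5 transcription factor genes were all on the lower side, with a median log2 change of -0.29. Tbx18, a T-box gene of meningeal and mural cells, was called. It ranged from 74.2 to 127 normalised reads in WT lithium libraries with a median of 83.7, against 90.3 to 156 with a median of 119 in WT vehicle libraries, so the sets overlapped. The log2 change was -0.40 ± 0.12 (SE, limma adjusted p = 0.038). Foxc1, needed for meningeal development, averaged 167 ± 33.3 in WT lithium mice and 181 ± 36.8 in WT vehicle mice (SD, n = 9 each), with a log2 change of -0.16 (limma adjusted p = 0.41). Aldh1a2, which encodes the retinoic acid-forming enzyme RALDH2, averaged 208 ± 41.0 in WT lithium mice and 245 ± 40.9 in WT vehicle mice, with a log2 change of -0.26 (limma adjusted p = 0.16).

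**Figure D3:**
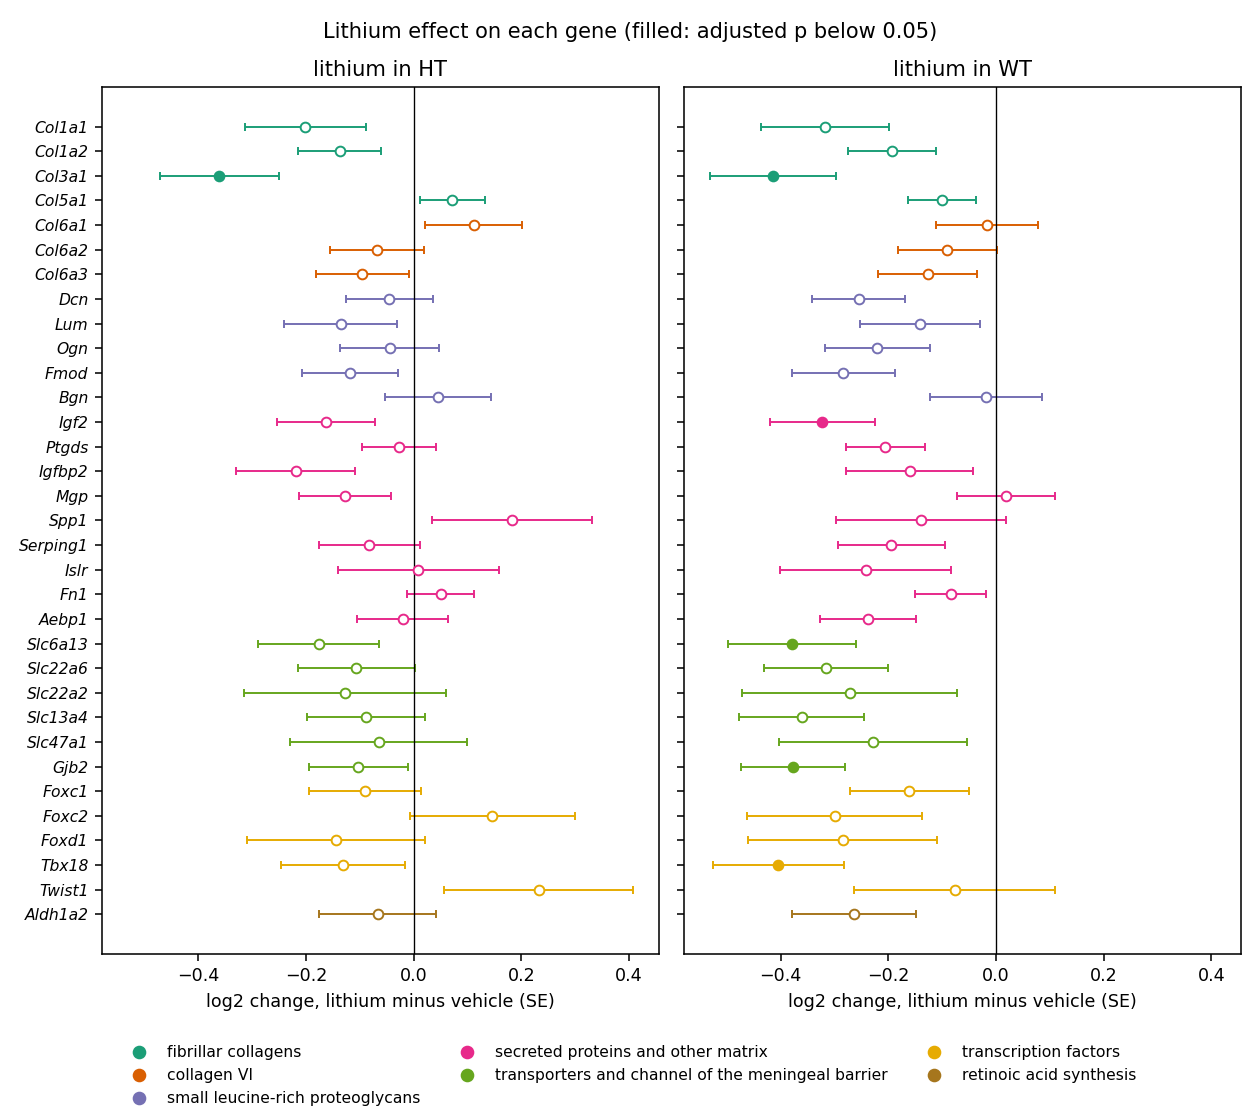
Log2 change of each of the 33 genes under lithium, with SE, in HT mice (left) and WT mice (right), coloured by role and filled where the limma adjusted p was below 0.05. In WT mice 32 of 33 points lie left of 0 and 5 are filled. In HT mice 25 lie left of 0 and only Col3a1 is filled.

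These calls changed with single libraries. None of the 33 genes was called without WT lithium female 4, 1 was called without WT lithium male 5 or without female 2, female 3 or male 1 of the WT vehicle set, and 9 were called without WT vehicle male 2. The count was 2 without WT vehicle male 3 or male 4 and 3 without WT lithium female 2 or WT lithium male 1. Without the 19 libraries rich in olfactory or striatal transcripts none was called, with a median log2 change of -0.06, 24 genes lower and 9 higher. The log2 change of Col3a1 was then -0.18 (limma adjusted p = 0.47), against -0.41 with all libraries. That of Igf2 was -0.21, of Slc6a13 -0.26, of Gjb2 -0.29 and of Tbx18 -0.29, with limma adjusted p of 0.19 to 0.33. In a fit of only the WT lithium and WT vehicle libraries, Col3a1 (limma adjusted p = 0.083) and Slc6a13 (limma adjusted p = 0.099) were not called. Markers of other tissue moved with the comparison. The 16 olfactory bulb genes were all on the lower side under lithium in WT (median log2 change -0.46, none called), and their sum was 5799 to 12713 normalised reads in WT lithium libraries and 5913 to 28328 in WT vehicle libraries. Tbx21 was at 0 in 2 WT lithium libraries. The 12 striatal genes were all on the higher side (median 0.28, none called), with sums of 7033 to 21267 in WT lithium libraries and 6653 to 13047 in WT vehicle libraries. Microglial genes were lower in 6 of 6, with 2 called, and cortical neuron genes higher in 7 of 7, with 2 called. Of 6 astrocyte genes 4 were lower and 2 higher, with none called. Endothelial genes were lower in 7 of 10, with 1 called lower, border macrophage genes in 6 of 7 and blood genes in 5 of 5, with none called in either. Of 9 pericyte and smooth muscle genes 5 were lower and 4 higher, and 2 were called higher. The sums of microglial genes were 5256 to 7343 normalised reads in WT lithium libraries and 6287 to 7704 in WT vehicle libraries. Of 9 choroid plexus genes 6 were lower, with sums of 134 to 920 in WT lithium libraries and 172 to 401 in WT vehicle libraries. Their part in the result was not tested beyond the fit with the olfactory and striatal scores as covariates, which called 3 of the 33 genes, Gjb2, Col3a1 and Tbx18.

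Without the 19 libraries the score averaged -0.37 ± 0.69 in HT lithium mice (SD, n = 6) and 0.10 ± 0.74 in HT vehicle mice (n = 6), while with all libraries it averaged -0.16 ± 0.61 in HT lithium mice and 0.10 ± 0.80 in HT vehicle mice (n = 10 each). In WT mice it averaged -0.47 ± 0.82 under lithium (n = 7) and 0.12 ± 0.76 under vehicle (n = 6). With all libraries it averaged -0.47 ± 0.83 under lithium and 0.29 ± 0.69 under vehicle (n = 9 each). These averages were not weighted by sex. Without the 19 libraries, WT lithium kept 4 females and 3 males, and WT vehicle 2 females and 4 males. HT lithium kept 3 of each sex, and HT vehicle 2 females and 4 males. The fit without them, with sexes weighted equally, had a median log2 change of -0.06 in WT. What part sex had in these averages was not tested.

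The score was also averaged by sex. It was -1.04 ± 0.57 in WT lithium females (SD, n = 4) and 0.11 ± 0.79 in WT vehicle females (n = 5). In males it was -0.02 ± 0.76 under lithium (n = 5) and 0.51 ± 0.58 under vehicle (n = 4). In WT mice, the sex difference of the lithium effect was called for none of the 33 genes and 0% of all genes with limma. Of the 33, 1 had an unadjusted p below 0.05 for it.

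The same lists taken outside the 33 genes gave mixed values under lithium in WT mice. Of 20 other meningeal and fibroblast genes, 16 were lower (median log2 change -0.12) and 3 were called lower, the collagen gene Col5a2 (-0.31), the growth factor gene Bmp6 (-0.31) and the transporter gene Slc22a8 (-0.26). Among 14 collagen processing genes 9 were lower, and the only call was P4ha2, a prolyl hydroxylase gene, which was higher (0.29). Of 13 genes of basement membrane collagens and laminins 10 were lower, with 1 call, Col4a5 (-0.31).

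In HT mice 1 of the 33 genes, Col3a1, was called lower under lithium, while 4.13% of all genes were called lower, 4.64% higher and 8.77% in either direction. The 33 genes were thus not called more often than genes in general. Of the 33 genes, 25 were on the lower side with a median log2 change of -0.09, against 0.00 over all genes, and 1 had an unadjusted p below 0.05. Col3a1 ranged from 300.2 to 465 normalised reads in HT lithium libraries with a median of 411, against 398 to 690 with a median of 476 in HT vehicle libraries. HT lithium libraries lay within or below the lower part of the vehicle range, and the sets overlapped. The log2 change was -0.36 ± 0.11 (SE, limma adjusted p = 0.033), and 10 of 10 HT lithium libraries were below the vehicle mean of their sex. Without the 19 libraries rich in olfactory or striatal transcripts its log2 change was -0.30 (limma adjusted p = 0.17), and the call was also lost without any 1 of 6 libraries: HT lithium female 4, HT lithium male 3, HT vehicle female 1, HT vehicle female 3, HT vehicle male 1 or HT vehicle male 5. It was lost as well in a fit of only the HT lithium and HT vehicle libraries (limma adjusted p = 0.063). Markers of other cells moved with this comparison too. Of 10 endothelial genes 7 were lower and 3 higher, with 4 called lower and 1 called higher, and their sum was 8532 to 10196 normalised reads in HT lithium libraries and 8448 to 11764 in HT vehicle libraries. Microglial genes were lower in 5 of 6, with 1 called, and blood genes in 5 of 5, with none called. Of 16 olfactory bulb genes 12 were higher, with none called. Of 12 striatal genes 8 were lower and 4 higher, and of 5 oligodendrocyte genes 4 were lower and 1 higher, with none called. Cortical neuron genes were higher in 4 of 7 and lower in 3, with none called. Lower were 4 of 6 astrocyte genes, 6 of 9 pericyte and smooth muscle genes and 6 of 9 choroid plexus genes, with none called. Of 7 border macrophage genes 5 were higher and 2 lower, with none called. The part of these markers in the result was not tested.

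The other genes of HT mice under lithium were nearer to 0. The 6 transporter and connexin genes were all on the lower side, with a median log2 change of -0.10, and Gjb2 had one of -0.10 (limma adjusted p = 0.54). Igf2 averaged 3009 ± 404 in HT lithium mice and 3395 ± 650 in HT vehicle mice (SD, n = 10 each), with a log2 change of -0.16 (limma adjusted p = 0.28). Tbx18 had a log2 change of -0.13 (limma adjusted p = 0.53). The largest positive value was that of Twist1, 0.23 ± 0.18 (SE). Of the 20 other meningeal and fibroblast genes none was called, and 2 of 14 collagen processing genes were higher, P4ha2 (0.29) and Bmp1 (0.19), which encodes the procollagen C-proteinase.

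Whether lithium acted differently in HT and WT was tested as an interaction. None of the 33 genes and 0% of all genes were called with limma, and edgeR and DESeq2 called none of the 33 either. The point estimates were positive for 31 of the 33 genes, with a median of 0.16, that is, a higher log2 change in HT than in WT mice. This median depended on the fit and ran from 0.02 to 0.20 in the alternative fits. The smallest p was that of Gjb2, with an interaction of 0.27 ± 0.13 (SE, limma adjusted p = 0.45), the 1 gene of the 33 with an unadjusted p below 0.05. A difference between the genotypes in the response was not shown for any of the 33.

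**Figure D4:**
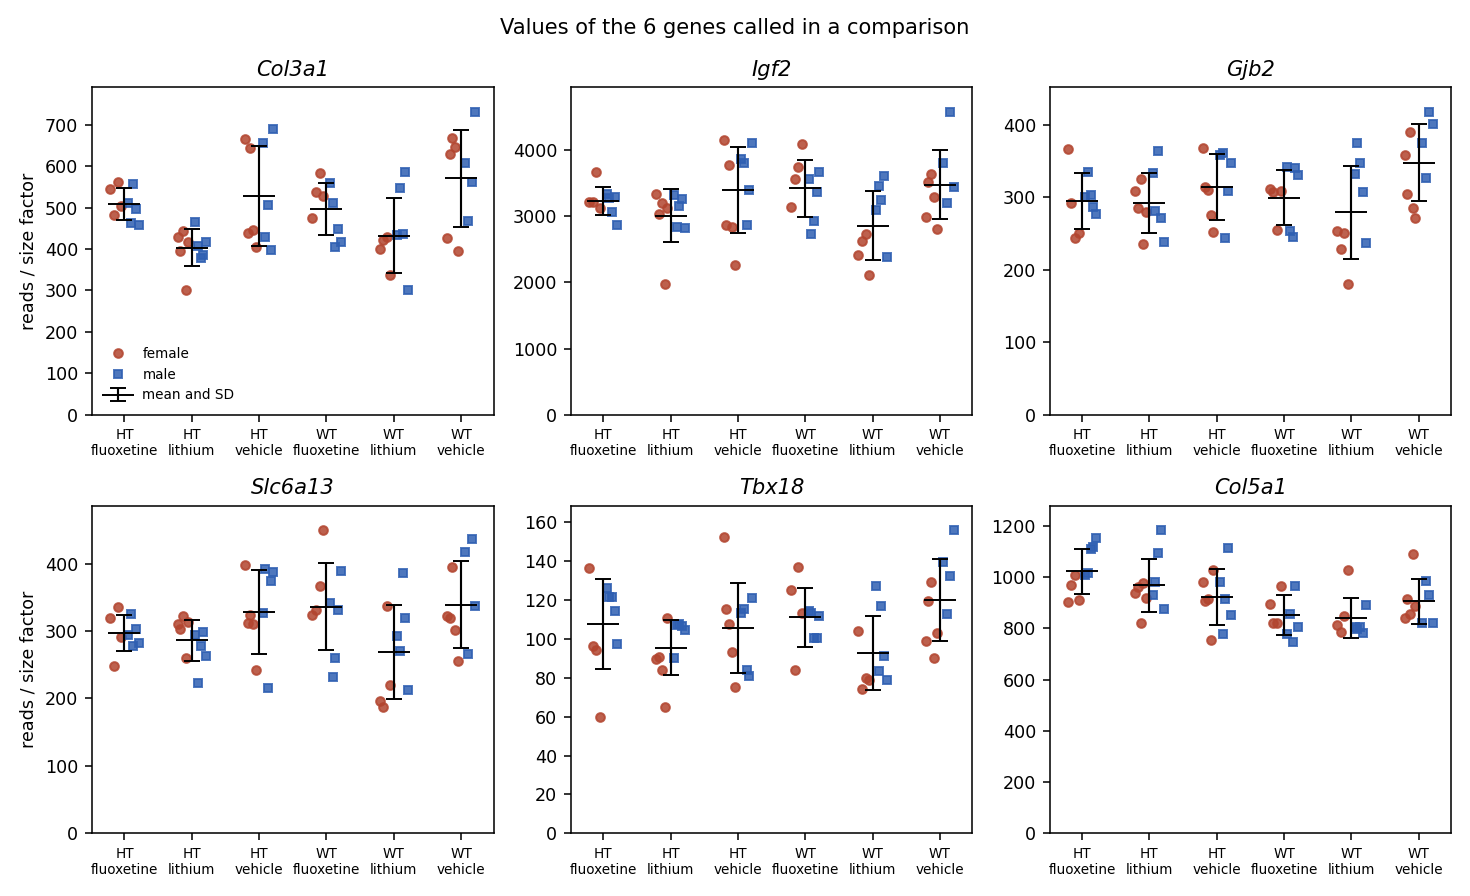
Normalised reads of the 6 genes called in a comparison, by genotype and treatment, with females as circles, males as squares and mean and SD as bars. Col3a1 is lower under lithium in both genotypes. Averaged over the treatments, Col5a1 is higher in HT than in WT libraries, least so under vehicle, and all sets overlap.

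Fluoxetine changed none of the 33 genes in either genotype with limma, and edgeR and DESeq2 called none. In HT mice 0.045% of all genes were called. Of the 33 genes 22 were on the lower side, with a median log2 change of -0.02, and 1 had an unadjusted p below 0.05. That was Col5a1, at 1023 ± 89.2 normalised reads in HT fluoxetine mice (SD, n = 9) and 922 ± 110 in HT vehicle mice (n = 10), with a log2 change of 0.14 ± 0.06 (SE, limma adjusted p = 0.56). In WT mice 0.146% of all genes were called. Of the 33 genes 19 were on the lower side, with a median log2 change of -0.00. Gjb2, the 1 gene with an unadjusted p below 0.05, averaged 299 ± 38.3 in WT fluoxetine mice and 348 ± 52.8 in WT vehicle mice (SD, n = 9 each), a log2 change of -0.23 ± 0.10 (SE, limma adjusted p = 0.36). Col3a1 averaged 496 ± 62.8 in WT fluoxetine mice and 571 ± 117 in WT vehicle mice. The comparisons of the 2 drugs share their vehicle libraries, so their changes are not independent. The interaction of fluoxetine with genotype was called for none of the 33 genes and for 0% of all genes with limma, and 2 of the 33 had an unadjusted p below 0.05. Its smallest p was that of Col5a1, 0.22 ± 0.09 (SE, limma adjusted p = 0.84).

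HT and WT mice were compared under each treatment and over all 3. Under vehicle none of the 33 genes was called with limma, edgeR or DESeq2, against 0.00562% of all genes, and 2 had an unadjusted p below 0.05. The smallest p was that of Fn1, which encodes fibronectin, at 3999 ± 570 normalised reads in HT vehicle mice (SD, n = 10) and 4456 ± 395 in WT vehicle mice (n = 9), a log2 change of -0.17 ± 0.06 (SE, limma adjusted p = 0.37). Under fluoxetine none was called by the same 3 tools, against 0.0112% of all genes, with 2 unadjusted p below 0.05. Under lithium none was called, against 0.0337% of all genes, with 1 unadjusted p below 0.05, and 27 of the 33 were on the higher side in HT with a median log2 change of 0.11. In the alternative fits this median ran from -0.01 to 0.13.

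Over the 3 treatments, 1 of the 33 genes was higher in HT, Col5a1, while 0.0506% of all genes were called higher and 0.152% in either direction. Col5a1 ranged from 754 to 1184 normalised reads in HT libraries with a median of 970, against 747 to 1091 with a median of 840 in WT libraries, so the genotypes overlapped. Means were 969 ± 106 in HT (SD, n = 29) and 865 ± 83.7 in WT (n = 27), and the log2 change was 0.16 ± 0.04 (SE, limma adjusted p = 0.044). By treatment the log2 change of Col5a1 was 0.25 under fluoxetine (limma adjusted p = 0.87, unadjusted 0.00027), 0.20 under lithium (limma adjusted p = 0.29) and 0.03 under vehicle (limma adjusted p = 0.93). The call was lost in 39 of the 56 fits that left out 1 library, with adjusted p up to 0.085, and without the 19 libraries rich in olfactory or striatal transcripts (log2 change 0.19, limma adjusted p = 0.13). Col5a1 lies on chromosome 2, as does Scn2a. So do Ptgds, with a log2 change of -0.00, and Serping1, which encodes the C1 inhibitor, with one of 0.04.

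Sex changed none of the 33 genes over the 12 groups with limma, edgeR or DESeq2, against 0.197% of all genes called, 0.157% higher and 0.0394% lower in females. In females 23 of the 33 were on the lower side, with a median log2 change of -0.03, and 5 had an unadjusted p below 0.05. The smallest p was that of Gjb2, with a log2 change of -0.16 ± 0.06 (SE, limma adjusted p = 0.56) in 27 females against 29 males. Ogn, which encodes osteoglycin, had a log2 change of -0.14 (limma adjusted p = 0.68), and was called without the 19 libraries named above.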

How the data were processed

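The kit was TruSeq Stranded mRNA, as given per the labels' protocols. Build GRCm38, DESeq2 1.19.11, Salmon 0.11.2 and R 3.6.0 appear in the submitters' processing notes without their roles. The deposited values were a signal per gene that the authors had made by dividing reads by a size factor. Within a tolerance of 0.01, every value was a whole number of reads times 1 step per library, which gave back the reads. In 3 libraries that step lay too near 1 for this test.

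Gene positions and transcript lengths were from GENCODE vM21 on GRCm38. Genes with a value of at least 10 in at least 4 libraries were tested. In R 4.3.3, limma 3.58.1 (trend, robust) was fitted to log2(value + 1), which understates changes of low genes, with 12 group means over all 56 libraries and both sexes weighted equally. A call needed an adjusted p below 0.05 (Benjamini-Hochberg, over all genes tested). The test was tried on simulated data.

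Alternatives were TMM, voom, no filter, pseudocounts of 0.5 and 5, only the groups compared, a replicate block, leaving out each library, leaving out 19 libraries with an olfactory or striatal score above 1, and those scores as covariates. edgeR 4.0.16 and DESeq2 1.42.0 on recovered reads were added after seeing the data. Statistics were given for genes called, the smallest p of each drug, genotype and interaction comparison, and 10 set genes covering the roles. The set genes were given mainly under lithium in WT, and some values were printed without a mean, SD or SE. The 33 genes and the lists were chosen with earlier results of these data known.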

Additional observations from a re-analysis of the deposited data

Results flagged for a closer look

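Of 192 sets of 4 or 5 libraries (14 named genes, the score and the summed share of the 33 genes in the 12 groups), 9 had a library that stood apart from the rest of its group, where chance alone gives about 1 in 20, or 9.6. Dixon's test at the 95% level was used, and no explanation was weighed.

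In HT lithium female 4, Igf2 was at 1983 normalised reads and the other 4 libraries of its group at 3040 to 3342, while Col1a2 was at 850 and the others at 1162 to 1266. In WT lithium male 5, Dcn was at 220 and the others at 381 to 423, Col5a1 was at 893 and the others at 781 to 807, and the score was at -1.37 and the others at 0.14 to 0.41. In HT fluoxetine male 3, Col1a1 was at 956 and the others at 648 to 717. In HT fluoxetine female 3, Igf2 was at 3667 and the others at 3132 to 3218. In HT lithium male 1, Tbx18 was at 90.2 and the others at 104 to 108. In WT fluoxetine female 3, Gjb2 was at 255 and the others at 307 to 312.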

How the results depend on the processing

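Under lithium in WT, 5 of the 33 genes were called. The count was 4 with voom or edgeR (both without Slc6a13), 4 with only the groups compared (without Col3a1 and Slc6a13, adding Fmod), 5 with TMM, no filter or pseudocounts of 0.5 and 5, 9 with DESeq2 (adding Dcn, Fmod, Ptgds and Slc13a4), 3 with the olfactory and striatal scores as covariates and 0 without the 19 libraries rich in those transcripts. Leaving out 1 library at a time gave 0 to 9. Under lithium in HT, 1 gene was called, against 0 with only the groups compared, 0 without the 19 libraries and 0 to 1 when 1 library was left out. For genotype over treatments the count was 1, against 0 without the 19 libraries and 0 to 1 when 1 library was left out. For sex over groups it was 0, and 1 without the 19 libraries (Ogn). The other 7 comparisons had 0 calls of the 33 in every alternative run. The cause of these differences was not tested, and the fit without the 19 libraries also had fewer samples, with 2 to 4 libraries left in a group.

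The 5 genes called under lithium in WT kept a log2 change below 0 in every alternative. The range was -0.47 to -0.18 for Col3a1, -0.41 to -0.29 for Gjb2, -0.36 to -0.21 for Igf2, -0.47 to -0.26 for Slc6a13 and -0.46 to -0.29 for Tbx18. Over these alternatives the adjusted p of Gjb2 ran from 0.0061 to 0.19, and its call was lost without WT lithium female 4 and without the 19 libraries. The count over all genes was 1016 under lithium in WT, 212 to 1152 in alternatives and 571 to 1226 when 1 library was left out. Under lithium in HT it was 1560, 509 to 2051 in alternatives and 985 to 1815 when 1 library was left out.

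The replicate numbers did not pair libraries: deviations of same-numbered libraries had a median r of -0.00, and 24 of 292 pairs were above 0.1. With the replicate block, 6 of the 33 genes were called under lithium in WT (adding Dcn), 1 under lithium in HT, 1 for genotype over treatments and 0 elsewhere. Precision for the lowest genes, such as Twist1, is limited by the few reads behind them. No litter was labelled.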

Other observations

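The genes most like Col5a1 were mostly outside the 33. Within groups over 56 libraries, the genes with the highest r with Col5a1 on the log2 scale were Thbs3, which encodes a thrombospondin, and Grk3, a receptor kinase gene, both with 0.73, then Ssh3 and Pitpnm2 with 0.70, Col6a1 and Zer1 with 0.68, Ptpru with 0.68, Fbf1 with 0.66, Nrbp2 with 0.64 and Kcnt1, a potassium channel gene, with 0.63. These values were chosen by size, share the libraries' depth and dissection, and carry no test.

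The 4 differences between the sexes in a drug effect also called none of the 33 genes with limma, against 0% of all genes. Results of edgeR and DESeq2 for them are not given here. For fluoxetine in WT, 28 of the 33 estimates were positive, that is, a higher log2 change in females, with a median of 0.21 on the log2 scale and 5 unadjusted p below 0.05. The smallest p was that of Foxc1, with an estimate of 0.64 ± 0.22 (SE, limma adjusted p = 0.97). For lithium in WT the estimates went the other way, with 27 of the 33 negative and a median of -0.15. In HT mice 26 were positive for fluoxetine (median 0.17) and 24 for lithium (median 0.12).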
